A study of Mus musculus with 2 samples.

Results

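The nuclei described here are macrophage-like immune nuclei from mouse mammary organoids, chosen by how much open chromatin they showed at 6 macrophage marker genes. The genes were Ptprc (CD45, on all white blood cells), Tyrobp (a signalling adaptor of myeloid cells), Csf1r (the receptor for the macrophage growth factor CSF1), C1qa and C1qb (complement chains made by macrophages) and Adgre1 (F4/80). For every nucleus with at least 20000 counts, the counts in peaks over these genes and 2 kb upstream were summed, divided by the total of the nucleus, and divided by the mean over all such nuclei. A nucleus was a member when its score reached a fixed minimum, which lay just under the lowest member score of 1.259. By this rule 1458 of 5509 nuclei were members, 1202 of 2732 in the library of doxycycline-treated organoids (DOX) and 256 of 2777 in the library of ethanol-treated organoids (EtOH).

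Macrophages are white blood cells that take up debris, present antigens and release growth factors and cytokines. In the mammary gland they lie along the ducts and within the epithelium, and they depend on signalling through Csf1r. Their identity rests on the factor PU.1, encoded by Spi1, which opens enhancers together with IRF, C/EBP and MAF factors, while inflammatory signals act on many of the same enhancers through AP-1 and NF-kB. Single-cell ATAC-seq shows which of these sites are open: a transposase cuts accessible DNA in each nucleus, and the cuts are counted in peaks. A count at a gene is a measure of open chromatin and not of RNA.

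Both groups came from primary organoids of C57BL/6J mice with the genotype shTRPS1.34 ki/+; CAG-rtTA3 tg/+, so that the ethanol controls carried the same alleles. The first allele holds an shRNA against Trps1, a repressor of the GATA family, with a green fluorescent marker in the Col1a1 locus, and the second expresses the doxycycline-dependent activator rtTA3 from the broadly active CAG promoter, a driver that the study found not to induce the shRNA in every cell. Organoids in Matrigel, in medium with neuregulin, noggin and R-spondin, were given 0.1 µg/ml doxycycline or ethanol for 7 days, in order to find early effects of Trps1 depletion on chromatin. Each group was 1 library, made from cells of several mice mixed before loading. The study describes the organoids of both groups as matched, in order to avoid differences between organoid preparations. The labels give no age. The legend of a figure of the study names wild-type mice for this experiment, whereas the labels and methods name the shRNA line, and the labels were followed. Effects of doxycycline and of the shRNA cannot be told apart, and with 1 library a group they cannot be told apart from differences between cultures either. Whether the shRNA was on in the members was not tested. All comparisons are therefore descriptions of 2 libraries without replicates, and each interval is a 95% interval that covers counting error only.

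The median member score was 3.21 in DOX, with a quartile range of 2.62 to 3.88, and 2.97 in EtOH, with a quartile range of 2.25 to 3.66. The other nuclei had median scores of 0.157 and 0.14. At the threshold, the lowest member score was 1.259 in both libraries, and the highest score outside was 1.235 in DOX and 1.248 in EtOH. Scores under 1.5 were held by 14 DOX and 11 EtOH members, and scores from 1 up to the minimum by 16 nuclei of each library. The scores ran on across the minimum without a gap.

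**Figure D1:**
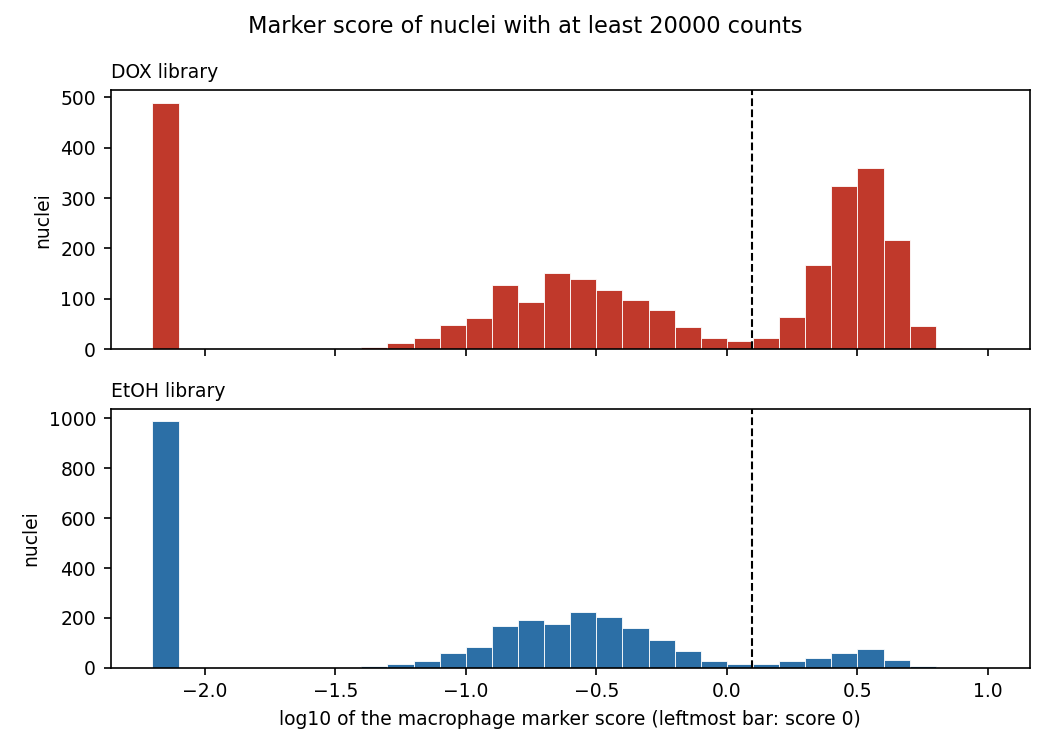
Number of nuclei (y axis) by log10 of the macrophage marker score (x axis) in DOX (top) and EtOH (bottom), each panel with its own y scale. The dashed line is the minimum score, the leftmost bar holds nuclei with a score of 0, and the right-hand group holds the 1202 DOX and 256 EtOH members.

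Members made up 44.0% of the DOX nuclei (exact binomial interval 42.1 to 45.9) and 9.22% of the EtOH nuclei (8.17 to 10.4), a ratio of 4.77. These are shares within a library, so more members and fewer other nuclei cannot be told apart. Raising the minimum score to 2.0 gave 40.7% and 7.63%, and thinning each nucleus to 20000 counts gave an EtOH share of 10.4%. Between the libraries 23 cell barcodes were shared. Depth was lower in members than in the other nuclei, with a median of 77011 against 83299 counts in DOX and of 56864 against 73902 in EtOH. EtOH members were thus also less deep than DOX members.

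Each of the 6 markers was open in most members. Csf1r had a count in 98.9% of DOX and 94.9% of EtOH members, Ptprc in 96.9% and 93.8%, C1qb in 87.1% and 75.8%, Tyrobp in 85.2% and 77.0%, Adgre1 in 80.4% and 75%, and C1qa in 69.6% and 63.3%. With every nucleus thinned to 20000 counts, the shares for C1qa were 44.5% and 41.4% and those for Csf1r were 95% and 89.1%. Among the other nuclei, Csf1r had a count in 40.7% and 43.6% and Ptprc in 40.1% and 28.0%, whereas the remaining 4 markers had one in 1.31% to 10.1%. These genes were used by the rule and their levels are given as a description. Peaks had been called in each library on its own, and the 6 genes held 53 DOX peaks and 30 EtOH peaks. With marker counts taken only from peaks that overlap a peak of the other library, members were 43.7% of DOX and 9.47% of EtOH nuclei.

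The peaks called in 1 library alone differed between libraries. Among peaks without a counterpart in the other library, 22553 of 39445 in DOX (57.2%) had a level 4-fold or more above that of the other nuclei in members, and 5392 (13.7%) were 4-fold lower. In EtOH, 108 of 43147 such peaks (0.25%) were higher and 22396 (51.9%) lower. These peaks cannot be compared between libraries.

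Counts were therefore compared in the 174940 regions in which both libraries had a peak, and a level is given in CPM, the counts of a group of nuclei scaled to the same total over these regions for every group. The DOX members held 81935926 such counts and the EtOH members 14002728, so EtOH sets the precision. A gene is the sum of regions over its body and 2 kb upstream. Ratios are on the log2 scale. Long genes gather more counts, so levels are compared between groups of nuclei for 1 gene and not between genes.

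Macrophage genes that the rule did not use had high levels in the members of both libraries. Such genes share nuclei with the rule's markers, so this comparison describes the members and tests nothing. Across all genes with at least 200 counts, 1668 of 17447 (9.56%) were at least 2-fold higher in members than in other nuclei in DOX and 1510 of 17435 (8.66%) in EtOH, with 1319 of 17297 (7.63%) in both. Lower by 2-fold or more were 3365 genes in DOX (19.3%), 3590 in EtOH (20.6%) and 3094 in both (17.9%). In the macrophage list, 16 of 20 genes were 2-fold higher in both libraries and none lower, with a median of 1.92 in DOX and 2.04 in EtOH, against medians of 0.18 and 0.16 over all genes. Fcer1g, the Fc receptor gamma chain, which shared 61.1% of its counts with another gene, was at 58.1 CPM in DOX members and 51.3 CPM in EtOH members but at 2.43 and 1.97 CPM in the other nuclei. Trem2, a lipid-sensing receptor, was at 43.3 and 44.7 CPM against 2.20 and 1.91 CPM. Cybb, the catalytic subunit of the phagocyte oxidase, was at 70.2 and 63.1 CPM against 4.04 and 2.44 CPM. Spi1 itself was at 173 and 164 CPM against 52.1 and 49.7 CPM, a log2 ratio of 1.73 in DOX (1.67 to 1.79) and 1.72 in EtOH. Among the list genes short of 2-fold in at least 1 library were Cebpa (0.87 and 1.12), Cebpb (0.60 and 0.82) and Mertk (0.39 and 0.82). In the other nuclei of DOX these had levels of 35.5 to 103 CPM.

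The inflammatory list had the highest median of all lists outside the rule's own markers in EtOH. Of its 12 genes, 8 were 2-fold higher in members of both libraries, with medians of 2.30 in DOX and 2.36 in EtOH. Il1b, encoding interleukin 1 beta, was at 69.5 CPM in DOX and 66.4 CPM in EtOH members, and at 1.06 and 0.672 CPM in the other nuclei. The chemokine gene Ccl3 was at 63.5 and 62.8 CPM against 0.836 and 0.317 CPM. Nlrp3, the sensor of the inflammasome that processes interleukin 1 beta, was at 103 and 97.6 CPM against 1.96 CPM in the other nuclei of each library. Nlrp3 was the highest of the 15 genes named by the smaller of the ratios of both libraries, at 5.71 in DOX (5.46 to 5.98) and 5.64 in EtOH. These genes needed at least 1000 member counts in each library. Ccl3 had higher ratios, 6.25 and 7.63, but 879 counts in EtOH members. The genes short of 2-fold included Nos2 (0.49 and 0.42), which makes nitric oxide in activated macrophages, Il6 (0.53 and 0.71) and Ptgs2 (0.48 and 0.16), and Il12b was at -0.83 in DOX and 0.21 in EtOH.

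Receptors that sense microbes followed. In the pattern recognition list, 10 of 14 genes were higher in both libraries, among them Tlr6 (6.33 in DOX and 6.98 in EtOH), Clec4n (6.13 and 7.10), Tlr8 (4.61 and 4.10) and Nod2 (1.65 and 1.5). Tlr3, a receptor for double-stranded RNA, was lower in members, at 16.7 and 14.6 CPM against 46.0 and 42.4 CPM in the other nuclei. Antigen presentation gave 6 of 10 genes higher, with Cd74, the invariant chain, at 2.84 and 2.67, Itgax (CD11c) at 3.93 and 4.57 and Cd86 at 2.67 and 2.85. Of the class II genes, H2-Ab1 was at 1.54 and 1.63 and H2-Eb1 at 0.81 and 0.86. In the list of lysosome and lipid handling, 6 of 16 were higher in both, with Cd36 (3.44 and 3.07), Tfec (4.73 and 4.07), Abca1 (2.25 and 2.40), Spp1 (1.73 in both) and Apoe (1.59 and 2.21) among them, while the protease gene Ctsd was at -0.026 and 0.015.

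Genes linked to tissue residency were mixed. Of 10, Mrc1 (the mannose receptor, 2.10 and 2.39), Stab1 (a scavenger receptor, 3.09 and 2.63) and Timd4 (a receptor for dying cells, 4.19 and 5.06) were 2-fold higher in both libraries, and Gas6 was lower (-1.60 and -1.54). Folr2 was at 0.82 and 0.92, and Lyve1 at 0.63 and -0.92. Among genes of alternative activation, Ccl24 was at 5.89 and 7.03 and Pdcd1lg2 at 2.38 and 2.07, whereas Arg1 was lower at -1.56 and -1.66. Mgl2 (4.93 in DOX) fell short of the count minimum in EtOH. Among growth factors, Osm (oncostatin M, 4.88 and 5.16), Il1rn (1.52 and 1.11), Tgfb1 (115 and 113 CPM against 48.2 and 48.3 CPM) and Grn (1.16 and 1.13) were higher, Hbegf was lower (-1.27 and -1.29), and Areg, which luminal cells express too, was at -0.033 and -0.31. Over all genes, 7.63% were 2-fold higher in both libraries and 17.9% lower. The interferon response list, with 1 of 12 genes higher in both, Ifit2 (1.34 and 1.03), was near that share. Of 12 genes of the integrated stress response, none was higher and 4 were lower in both. The monocyte list had 2 of 5 higher, Plac8 (2.48 and 1.15) among them, and the osteoclast-like list 2 of 6, Atp6v0d2 and Mmp9.

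**Figure D2:**
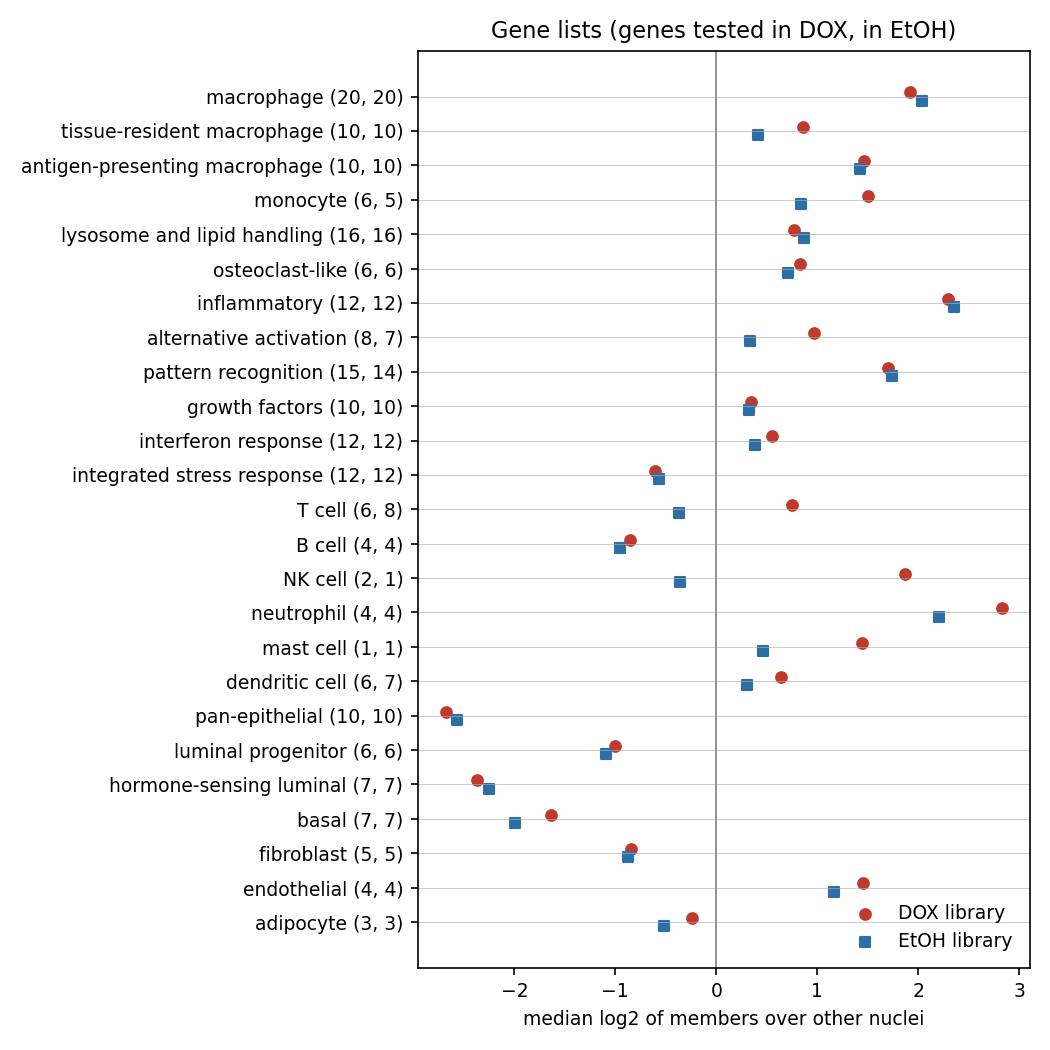
Median log2 ratio of members over other nuclei (x axis) for each gene list (y axis), with DOX as circles and EtOH as squares. The numbers in brackets are the genes with enough counts in each library, and the inflammatory and macrophage lists sit near 2 while the pan-epithelial list sits below -2.5 in both libraries.

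The other 14 of the 15 named genes were also genes of white blood cells for the most part. Slc11a1, an ion transporter of phagosomes, was at 123 CPM in DOX and 117 CPM in EtOH members against 2.96 and 2.22 CPM in the other nuclei. C5ar1, the receptor for the complement fragment C5a, was at 104 and 102 CPM against 2.82 and 1.87 CPM. Plek, a protein kinase C substrate of blood cells, was at 163 and 155 CPM against 4.24 and 2.52 CPM. The remaining 11 were Lrrc25, Cd84, Arhgap30, Evi2a, Il21r, Nfam1, Osm, Evi2, Cd300a, Stap1 and Abcg3, and their ratios lay between 4.29 (Abcg3 in DOX) and 6.13 (Cd84 in EtOH). All counts of Evi2 and Evi2a and 67% of those of Arhgap30 came from regions that another gene covers too, so these genes cannot be told from their neighbours.

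Markers of other cell types were checked against the label. All 10 pan-epithelial genes were at least 2-fold lower in members of both libraries, with medians of -2.68 and -2.57. Epcam was at 12 and 10.0 CPM in members against 43.9 and 38.6 CPM, and the claudin gene Cldn4 at 1.53 and 2.0 CPM against 42.2 and 29.7 CPM. Per nucleus, the pan-epithelial level had a median of 134 CPM in DOX members and 114 CPM in EtOH members against 848 and 853 CPM in the other nuclei. Members whose level reached the lower quartile of the other nuclei numbered 7 of 1202 in DOX (0.582%) and 11 of 256 in EtOH (4.30%), and none of them was among the 5% of nuclei with the highest doublet score. That top 5% held 3.16% of DOX members and 1.17% of EtOH members. Of the lymphocyte genes, Bcl11b (-3.15 and -3.03) and Cd3e (-1.33 and -1.02) were lower in members. Cd3d (3.63 and 3.88), Cd4 (4.57 and 4.59) and Ms4a1 (5.91 and 4.97), on the other hand, were open in them. The neutrophil list had medians of 2.83 in DOX and 2.21 in EtOH over the 4 of its 7 genes with enough counts, which in DOX was above the median of the inflammatory list. Of its genes, Csf3r (4.62 and 5.09), Cxcr2 (2.09 and 1.43) and Mmp8 (3.57 and 3.00) were higher and S100a8 was at -0.11 and 0.20. Flt3 and Clec9a of the dendritic cell list were higher, while Xcr1 was at 0.73 in both and Zbtb46 at -0.54 and -0.14. Of the endothelial genes, Cdh5 and Kdr were higher and Emcn lower, with list medians of 1.45 and 1.17. The T cell list had medians of 0.75 and -0.37, the B cell list of -0.85 and -0.95, the dendritic cell list of 0.64 and 0.30, and the fibroblast list of -0.84 and -0.87. Hormone-sensing luminal (-2.37 and -2.25), basal (-1.64 and -1.99) and luminal progenitor genes (-1.0 and -1.09) had medians below 0, and so did the adipocyte list (-0.24 and -0.52). Single genes went the other way, with Ltf of the luminal progenitor list at 0.89 and 1.91, Acta2 of the basal list at 0.73 and 0.74, and Adipoq at 1.91 and 2.05. The NK cell and mast cell lists had 2 genes or fewer with enough counts. No region was shared at Ly6g, S100a9, Ngp, Cd79a, Ncr1, Cpa3, Fcer1a, Mcpt4, Tie1, Lum, Lep, Calcr, Ctsk, Ly6c2, Chil3 or Retnla, so these genes gave no value. The macrophage markers were thus high and the epithelial markers low, while Cd3d, Cd4, Ms4a1, Csf3r, Cxcr2, Mmp8, Flt3, Clec9a, Cdh5 and Kdr, listed for other cell types, were higher in members too, and whether cells of another white blood cell type are among the members was not tested.

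Single members varied moderately. The summed level of the macrophage list, which the rule did not use, ranged from 125 to 4630 CPM over DOX members with a median of 1430, and from 105 to 2670 CPM over EtOH members with a median of 1440. The other nuclei had medians of 424 and 387 CPM, and their 95th percentiles of 650 and 616 CPM lay under the 5th percentiles of the members, 978 and 848 CPM. For the inflammatory list the member medians were 572 CPM in DOX and 541 CPM in EtOH, against 148 and 118 CPM.

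Most of the open sites of the members lay away from promoters, as did most of the regions compared. Of 166591 regions with at least 100 counts in each library, 17945 (10.8%) were at least 4-fold higher in members than in other nuclei in both libraries and are called open here, and 58585 (35.2%) were 4-fold lower and are called closed. Peaks of 1 library alone are left out of these shares. Among them 22553 DOX peaks were 4-fold higher in members and 5392 lower, and 108 EtOH peaks were higher and 22396 lower. Within 1 kb of a transcription start site (TSS) lay 7.22% of the open regions, against 13.3% of all those compared and 6% of the closed ones. The median distance to the nearest TSS was 14.5 kb for open, 15.5 kb for compared and 30.1 kb for closed regions. In a gene body lay 57.3% of open, 56.6% of compared and 49.1% of closed regions. The genes with the most open regions nearest to their TSS were Lpp with 38, Maf with 32, Runx1 with 28, Zeb2 with 26, and Elmo1 and Irs2 with 23 each. Over all regions compared 10.8% were open. How many compared regions lay nearest to each of these genes was not counted, so these numbers are not shares and do not single out a gene. Maf, Runx1 and Zeb2 encode transcription factors of macrophages and Elmo1 a protein that acts in engulfment, while Lpp encodes a focal adhesion protein.

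The 8 regions with the highest ratios were almost empty outside the members. Clec4a2, encoding a C-type lectin, had the only one at a TSS (chr6:123122867-123123764), with 2167 counts in DOX and 315 in EtOH members against 24 and 30 in the other nuclei. An intron of Dab2, an endocytic adaptor gene, held another (chr15:6341258-6342100), with 1370 and 252 counts against 14 and 24. The other 6 were in introns of Rgl1 and Zg16 or intergenic, nearest to Marcks, Ptcd2, F9 and Tent5a at distances of 51.3 to 182 kb, and all 8 had ratios between 6.87 and 8.14.

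The sequences of 4 of these are printed because they carry the letters that set the open regions apart, GAGGAAGT for PU.1 or the composite of PU.1 and IRF (GGAA, any 2 bases, GAAA). Capitals mark matches on either strand to the letters of PU.1, PU.1-IRF, C/EBP and AP-1. Each is the central 300 bases of the region, plus strand, GRCm38 (mm10). In order, they lie in an intron of Zg16 (chr7:127080142-127080441), between genes 57.3 kb from Ptcd2 (chr13:99287254-99287553), in an intron of Rgl1 (chr1:152528842-152529141) and between genes 51.3 kb from Marcks (chr10:37190114-37190413).
Zg16 intron: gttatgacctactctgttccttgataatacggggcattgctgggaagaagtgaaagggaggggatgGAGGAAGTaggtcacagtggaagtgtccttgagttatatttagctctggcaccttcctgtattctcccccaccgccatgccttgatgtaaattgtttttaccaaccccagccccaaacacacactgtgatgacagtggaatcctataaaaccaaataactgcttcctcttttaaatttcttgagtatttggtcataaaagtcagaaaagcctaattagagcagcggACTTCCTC
Ptcd2, intergenic: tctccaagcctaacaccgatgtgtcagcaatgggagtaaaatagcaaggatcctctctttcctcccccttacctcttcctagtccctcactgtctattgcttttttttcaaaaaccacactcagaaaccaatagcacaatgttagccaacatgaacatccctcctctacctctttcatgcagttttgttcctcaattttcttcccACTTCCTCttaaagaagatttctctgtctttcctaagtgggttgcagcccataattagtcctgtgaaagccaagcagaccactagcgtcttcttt
Rgl1 intron: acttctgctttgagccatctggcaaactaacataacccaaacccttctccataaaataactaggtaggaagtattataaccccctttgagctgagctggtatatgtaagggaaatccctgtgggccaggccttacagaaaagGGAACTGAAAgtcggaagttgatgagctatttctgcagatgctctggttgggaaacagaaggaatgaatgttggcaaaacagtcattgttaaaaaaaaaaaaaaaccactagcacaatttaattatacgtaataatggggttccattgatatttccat
Marcks, intergenic: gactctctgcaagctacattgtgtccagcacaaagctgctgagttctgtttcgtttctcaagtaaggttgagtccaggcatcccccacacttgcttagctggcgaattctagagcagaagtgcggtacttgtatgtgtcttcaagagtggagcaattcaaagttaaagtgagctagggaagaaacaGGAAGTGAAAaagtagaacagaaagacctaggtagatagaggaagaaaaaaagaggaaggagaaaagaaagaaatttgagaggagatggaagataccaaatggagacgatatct

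The Zg16 region holds 2 PU.1 matches, and its level was 23.0 CPM in DOX and 29.0 CPM in EtOH members against 0.197 and 0.153 CPM in the other nuclei. The Ptcd2 region held 15 and 15.6 CPM against 0.110 and 0.120 CPM, although the peaks of the libraries overlapped over only 65.9% of it. The Rgl1 region held 24.2 and 21.6 CPM and the Marcks region 16.7 and 15.6 CPM, and both hold the PU.1-IRF letters once. These regions were picked for their letters. Of those not printed, the region nearest to Tent5a holds the PU.1-IRF letters too. Among the motifs marked, the Dab2 region holds AP-1 letters alone and the region nearest to F9 holds C/EBP letters alone. The letters of the Clec4a2 region are not given.

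Over all regions, PU.1 had the highest ratio of its share in open over that in closed regions among the 16 motifs searched, 7.53. The search read both strands of the central 300 bases, and regions within 1 kb of a TSS were left out. The 8 letters of PU.1 stood in 16.8% of 16650 open regions (16.3 to 17.4), in 4.86% of the 144444 compared, and in 2.24% of the 55068 closed ones. The PU.1-IRF composite stood in 9.33% of open, 3.85% of compared and 2.89% of closed regions. The IRF letters (GAAA, any 2 bases, GAAA), which can overlap the composite, stood in 6.07%, 4.31% and 3.90%, and the MAF letters TGCTGAC in 8.88%, 6.66% and 6.21%. The C/EBP letters TTGCNNAA varied little, at 19.7%, 17.0% and 18.1%, and so did the AP-1 letters TGANTCA, at 21.8%, 22.7% and 25.3%. The letters of TEAD (ACATTCC) ran the other way, in 3.48%, 7.30% and 9.90%. Those of the epithelial factor GRHL (AACCGGTT) did so too, in 0.0541%, 0.246% and 0.360%. CTCF letters stood in 0.234% of open, 2.33% of compared and 0.434% of closed regions, so that most regions with them were in neither class. Median GC content was 47.3% in open, 47.3% in compared and 46.7% in closed regions. A match is a description of letters and not a site.

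**Figure D3:**
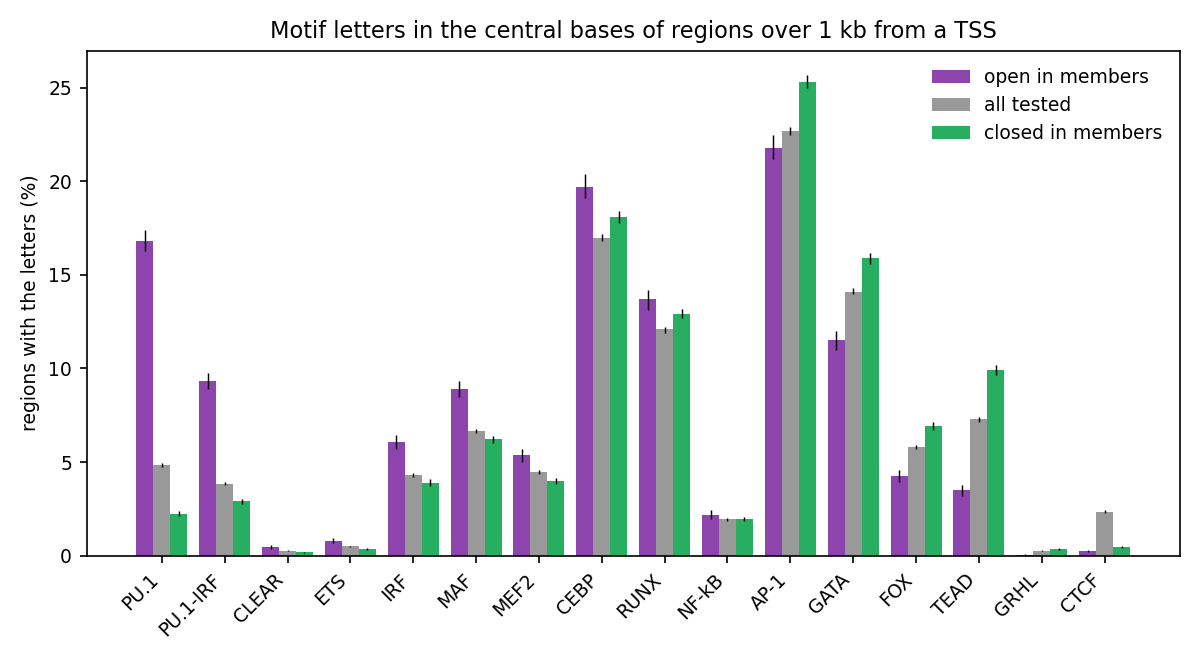
Percent of regions over 1 kb from a TSS (y axis) whose central 300 bases hold the letters of each motif (x axis), for regions open in members, all compared and closed in members, with exact binomial 95% intervals as bars. Motifs are ordered by the ratio of open over compared regions, from PU.1 with 16.8% against 4.86% to CTCF with 0.234% against 2.33%.

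The PU.1 letters gave the same picture in each library alone. Regions with them had a median log2 ratio of members over other nuclei of 1.38 in DOX (7002 regions) and 1.16 in EtOH (6804 regions), and regions without them of -1.60 and -1.52. For the composite the medians were -0.12 and -0.19 with the letters and -1.53 and -1.46 without. TEAD regions were at -2.57 and -2.24, against -1.38 and -1.34 for the rest.

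Levels in DOX and EtOH members were close for nearly all genes. Among 15085 genes with at least 400 counts over the members of both libraries, the median log2 ratio of DOX over EtOH was -0.018 and the central 90% lay between -0.26 and 0.31. A ratio of at least 2-fold with an interval that left out 0 was reached by 38 genes higher in DOX (0.252%) and 12 lower (0.0795%). The lists had medians between -0.12 and 0.31 apart from the mast cell list, of which only Hdc (0.66) had enough counts. In the macrophage list the 20 ratios ran from -0.32 (Cebpa) to 0.27 (Fcgr3), and in the inflammatory list the 12 ratios ran from 0.016 to 0.27. The rule's 6 markers ran from -0.31 (Adgre1) to 0.035 (C1qa).

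Trps1, the target of the shRNA, was open in both classes of nuclei. Its level was 306 CPM in DOX and 288 CPM in EtOH members, a log2 ratio of 0.087 (0.019 to 0.16) that was -0.02 in regions within 1 kb of a TSS, and 171 and 150 CPM in the other nuclei, a ratio of 0.19. An shRNA acts on RNA, so these values do not measure the knockdown.

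Of 187 list genes with enough counts, 3 passed the 2-fold call. Lyve1, a receptor for hyaluronan found on vessel-associated macrophages, was at 6.05 CPM in DOX and 2.14 CPM in EtOH members, a ratio of 1.5 (0.75 to 2.36). Il10, encoding the anti-inflammatory interleukin 10, was at 20.4 and 7.93 CPM, a ratio of 1.37 (0.97 to 1.78). In the other nuclei these genes had ratios of -0.059 and -0.12. Neither passed in the regions of which at least 80% lay in peaks of both libraries. Tbx3, a luminal factor, was lower at 4.67 against 9.36 CPM (-1.0, -1.41 to -0.57), and both values were far below the 90.9 and 90.1 CPM of the other nuclei. Short of the call were Apoe (25.5 against 43.8 CPM, -0.78, -0.96 to -0.59), Timd4 (9.79 against 14.8 CPM, -0.59, -0.91 to -0.27), Fn1 (17.0 against 10.4 CPM, 0.72, 0.37 to 1.09), Clec4e (17.4 against 12 CPM, 0.53) and F13a1 (46.3 against 34.8 CPM, 0.41).

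**Figure D4:**
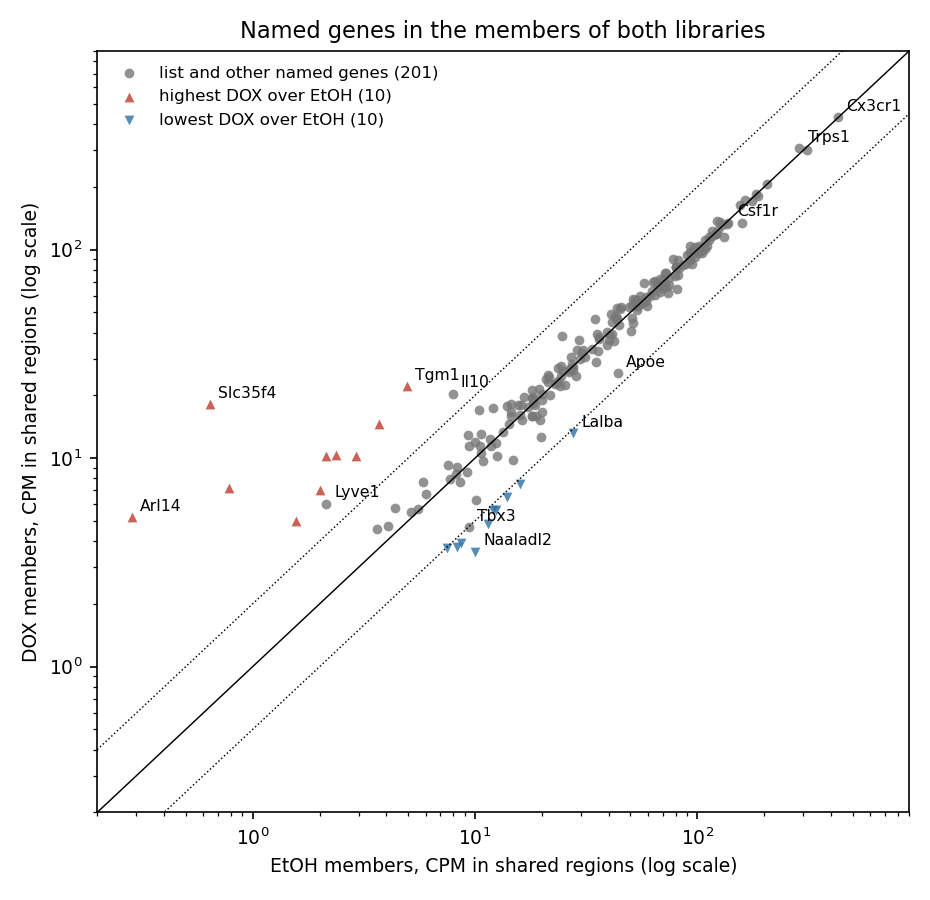
Level of named genes in EtOH members (x axis) and DOX members (y axis), both in CPM on log scales, each point a gene in 1 library per axis, with lines at equal levels (solid) and at 2-fold (dotted). Most list genes lie along the solid line, Lyve1, Il10 and Tbx3 lie at or outside the dotted ones, the 10 highest DOX over EtOH genes lie at low EtOH levels, and the lowest include Naaladl2 at 3.56 CPM in DOX and 10.0 CPM in EtOH.

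How the peaks had been called bears on the genes outside the lines. A region counted as shared once a DOX and an EtOH peak overlapped by 1 bp, and where peaks barely overlapped, the counts of the libraries come from different DNA. With regions restricted to the 80% overlap, 12 of 14790 genes (0.0811%) were 2-fold higher and 8 (0.0541%) lower. They included 9 of the 38 higher and 8 of the 12 lower genes. The restriction took the ratio of Cnrip1 from 3.20 to -0.0054, that of Gpr4 from 2.25 to 0.49, that of Tgm1 from 2.17 to 0.92 and that of Slc9c1 from 1.80 to 0.56, and Arl14 (4.19), Hbq1a (1.97), Xkrx (1.81) and Klrb1b (1.67) had no region left.

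Of the 10 highest genes, Slc35f4 and Car4 passed with and without that restriction. Slc35f4, of a family of solute carriers, held 1322 counts in DOX and 7 in EtOH members in the restricted regions, a ratio of 5.03 (3.58 to 7.09), and it was higher in the other nuclei of DOX too (1.02). Car4, a carbonic anhydrase gene, held 853 and 33 counts, or 11.4 against 2.54 CPM, a ratio of 2.16 (1.46 to 2.97), and was level in the other nuclei (-0.017). Outside the 10, 7 more genes called with all regions passed the restriction. Cd34 was at 10.9 against 4.31 CPM (1.34, 0.78 to 1.95), the adhesion receptor gene Adgrg1 at 82.6 against 37.8 CPM (1.13, 0.94 to 1.32), F2rl2 at 1.45, Cyp8b1 at 1.27, Figla at 1.23, S100a2 at 1.21 and Mt4 at 1.03. All counts of F2rl2 and S100a2 came from regions that another gene covers too. Adgrg1 had the most counts of these, 6196 and 491, and a ratio of 0.39 in the other nuclei.

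Of the 12 lower genes, 11 had less signal in members than in the other nuclei of both libraries, with a median ratio of -3.48 in EtOH. Naaladl2 was at 3.56 CPM in DOX and 10.0 CPM in EtOH members but at 120 and 108 CPM in the other nuclei. Without the members whose pan-epithelial level reached the range of the other nuclei, which left 1195 DOX and 245 EtOH members, 1 of the 12 passed the call, and 36 of the 38 higher genes did. Of the lower genes named by rank, Naaladl2 was then at -1.23, Agbl4 at -0.90, Ttll10 at -0.80 and Nkain2 at -0.77, and Naaladl2 and Ttll10, with Gli3 and Itprid1, no longer had 400 counts. The gene that still passed was Lalba, encoding the milk protein alpha-lactalbumin, at 13.2 CPM in DOX and 27.6 CPM in EtOH members (-1.06, -1.30 to -0.82). In the other nuclei Lalba was lower in DOX by a like amount, at 8.82 against 19.3 CPM (-1.13). With the 80% overlap Lalba was at -1.32 in members but no longer had 400 counts. The 8 lower genes that passed with that overlap did not pass without the members at epithelial levels. No lower gene therefore passed both restrictions.

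Among 49026 regions with at least 400 counts, 1012 (2.06%) were 2-fold higher in DOX members and 27 (0.0551%) lower, with a median ratio of 0.016 over all. Of the higher ones, 49.7% came from peaks that overlapped over less than 50% of their joint length, against 1.98% of all compared, so the 80% overlap was applied here as well. Then 304 of 43505 regions (0.699%) were higher and 16 (0.0368%) lower. The minimum of 400 counts is reached more easily by regions that are high in the deeper DOX members. With a minimum of 5 CPM in the mean of both libraries in place of it, 128 regions were higher and 24 lower. Of the regions that are open in members, 51 of 14119 (0.361%) were higher and 7 (0.0496%) lower. Their median was 0.020, and 90% of them had ratios from -0.40 to 0.53. Open regions had to be 4-fold higher in members of both libraries, which leaves out regions low in the members of either. The small shares and narrow range of the open regions are partly set by that choice.

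In the other nuclei the median ratio of DOX over EtOH over the 304 higher regions was 0.10, against 1.18 in the members that chose them, and 45 were 2-fold higher and 11 were 2-fold lower there. Only 7.57% lay within 1 kb of a TSS, against 31.5% of those compared.

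Among the regions with at least 80% overlap, the highest ratio was at an exon of Slc35f4 (chr14:49321688-49322649), with 1234 counts in DOX and 2 in EtOH members (6.72, 4.24 to 12.03). The other nuclei had 715 and 166 counts there (2.64). An intron of Me1, encoding malic enzyme (chr9:86624498-86625390), held 423 and 11 counts (2.72), with 0.0099 in the other nuclei. The region at a TSS of Adgrg1 (chr8:94983868-94984746) held 2592 and 74 counts (2.58, 2.11 to 3.09), with 0.68 in the other nuclei.

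AP-1 letters were frequent in the higher regions. Of the 281 regions (0.942% of 29819) that were higher in DOX members and over 1 kb from a TSS, 130 held TGANTCA (46.3%, 40.3 to 52.3), against 22.9% of those compared. PU.1 letters stood in 7.83%, against 11.2%. With the minimum of 5 CPM the AP-1 share was 47.5% of 118 regions against 23.2%, and without the members at epithelial levels it was 44.2% against 22.9%. In the other nuclei, over the same regions, it was 24.6% of the 1467 that were 2-fold higher in DOX (4.92%) and 35.1% of the 769 that were 2-fold lower (2.58%). These 1467 and 769 regions were picked by fold alone, without the interval that the member regions needed. Taken over all 6840 regions with the letters, members had a median ratio of 0.065, against 0.022 without them.

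The lower regions were few. At the TSS of Apoe (chr7:19698688-19699417) the members held 7.86 CPM in DOX and 26.1 CPM in EtOH (-1.73, -2.00 to -1.46), and the other nuclei differed the same way (-1.38). The DOX peak there was 338 bases wide and the EtOH peak 730, so the counts cover different lengths. Regions with well matched peaks were lower in an intron of Hivep3 (-1.54, -1.89 to -1.17), 4.08 kb from Sgk1 (-1.31) and 9.42 kb from Hpgd (-1.27), with 0.43, -0.54 and -1.59 in the other nuclei.

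The 1202 DOX members were divided by their chromatin into 5 subclusters of 362, 306, 269, 134 and 131 nuclei, which were left without names. EtOH members were not divided. Macrophage list levels were alike in the first 4, between 1360 and 1480 CPM, and 1190 CPM in subcluster 5. Subcluster 1 led in class II genes, with H2-Aa at 41.3 CPM against 20.8 CPM in the rest (0.99, 0.82 to 1.16), Cd74 at 161 CPM against 83.9 to 120 CPM in the others, and the transcription factor gene Runx3 at 174 against 98.1 CPM. Subcluster 2 led in Slpi, encoding an antiprotease, at 97.2 against 39.1 CPM (1.32, 1.19 to 1.44), in F7, Ptges and Sgms2, and in F13a1 at 71.9 CPM, which was lowest in subcluster 1 at 26.9 CPM. Subcluster 4 led in Tox2 (62.0 against 25.4 CPM), in Folr2 (40.5 CPM against 23.2 to 25.6 CPM) and in Spp1 (37.9 CPM against 21.7 to 25.8 CPM). Gpnmb was at 32.4 CPM there, at 30.4 CPM in subcluster 2 and at 11.7 CPM in subcluster 1, and the list of lysosome and lipid handling was at 1440 CPM in both subclusters 2 and 4. Subcluster 3 differed least, and its leading ratio was 0.55, for Tmem176a and Tmem176b, which share all their regions. These genes come from the counts that formed the subclusters and are a description.

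Subcluster 5 stood apart by depth and by epithelial signal. Its median depth was 43517 counts, against 76595 to 79691 in the others, its pan-epithelial level was 308 CPM against 130 to 147 CPM, and 7.63% of its nuclei were in the top 5% by doublet score, against 0.743% to 4.14%. Its leading genes were Nfib (110 against 17.6 CPM, 2.64), Pakap, Shroom3 and Auts2. Without it, the 12 genes lower in DOX became 34, while the higher genes and regions kept to within 1.5 times of their number.

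**Figure D5:**
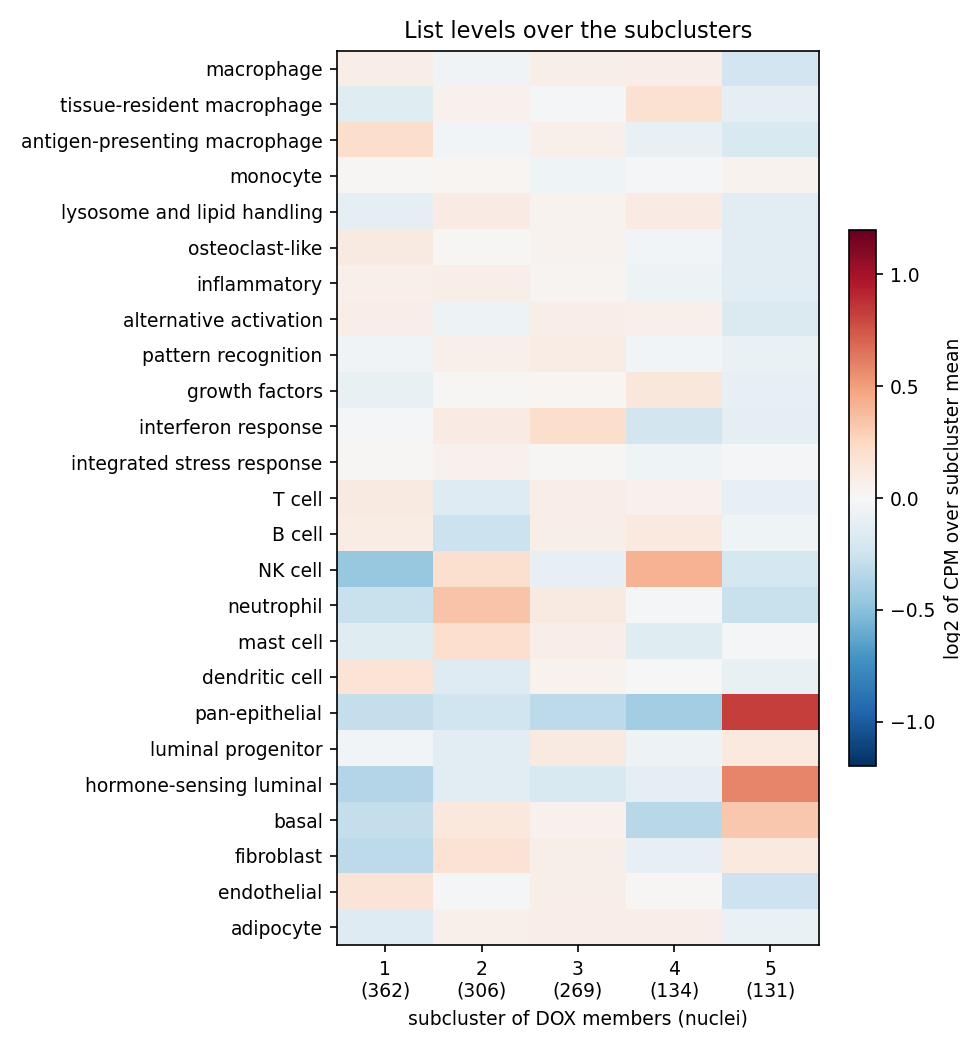
Levels of gene lists (rows) in the 5 subclusters of DOX members (columns, with nuclei in brackets), coloured by log2 of the CPM over the mean of the subclusters. Subcluster 5 stands out with a pan-epithelial level of 308 CPM, and subcluster 1 is highest for the antigen-presenting list at 1310 CPM.

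The 304 regions higher in DOX were looked up in each subcluster, whose counts had helped to choose them. At least 2-fold above the EtOH members were 263 of them in subcluster 2 (86.5%), 212 in subcluster 4 (69.7%), 211 in subcluster 5 (69.4%), 124 in subcluster 1 (40.8%) and 119 in subcluster 3 (39.1%). Over all 43505 regions compared, the shares were 3.89% in subcluster 2, 2.65% in subcluster 4, 1.9% in subcluster 5, 1.07% in subcluster 1 and 0.706% in subcluster 3, in the same order. How the EtOH members fall among such subclusters was not determined.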

How the data were processed

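Single-cell ATAC-seq libraries of DOX and EtOH organoids (1 each) were used, with groups from the labels. The deposited counts are whole-number transposition counts per peak and barcode, made by the authors with Cell Ranger ATAC (2.0.0 in the file headers; the methods cite another version) on mm10, with cells and peaks called per library and no normalization. Both ends of a fragment are counted, so intervals used counts divided by 2. Of 6175 deposited nuclei, the 5509 with at least 20000 counts were kept. No doublets were removed in the main values; a score from simulated doublets (30 neighbours) served as an alternative. Peaks were merged at 1 bp overlap and annotated with GENCODE M21 (21911 protein-coding genes); scaffold peaks (69 DOX, 61 EtOH) were left out.

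Ratios carry exact conditional binomial intervals and were run on simulated counts with planted changes. Those counts were drawn with the same counting error that the intervals assume and without spread between nuclei. The simulation therefore cannot show how well the intervals hold for the real nuclei. No test between groups was possible. Calls needed the stated fold and counts and, for DOX over EtOH, an interval without 0. Subclusters came from LSI components 2 to 20, 15 neighbours and Leiden resolution 0.5. Named were genes of 26 lists (1 gene not found), the 15 highest members-over-other genes with at least 1000 member counts in each library, the 10 highest and lowest DOX over EtOH genes, 8 open regions, the 5 highest and lowest DOX over EtOH regions and Trps1; regions named for matched peaks, the other genes called at 80% overlap and subcluster genes were picked after values were seen. Members and lists were chosen with earlier results of these data known. Python 3.11.15, numpy 2.4.6, scipy 1.17.1, pandas 2.3.3, scikit-learn 1.9.0, igraph 0.11.9, leidenalg 0.10.2 and matplotlib 3.10.9 were used. Some items among the named genes and regions are not reported here.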

Additional observations from a re-analysis of the deposited data

Results flagged for a closer look

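Nuclei below the depth minimum, which entered no comparison, held marker signal too: 85 of 339 in DOX and 49 of 327 in EtOH passed the minimum score.

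Peaks called in 1 library alone, which were not compared between libraries, were flagged for their signal in members. Of 39445 DOX peaks without an EtOH counterpart and with 100 counts or more, 22553 (57.2%) had a level in members of 4-fold or more that in other nuclei, whereas 108 of 43147 EtOH peaks without a DOX counterpart were (0.25%). These peaks took 9.03% of the member counts in DOX and 1.98% in EtOH. Among nuclei with at least 20000 counts, members were 44.0% in DOX and 9.22% in EtOH, and their part in the peak calls was not tested.

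Tgm1, encoding a transglutaminase, had a log2 DOX over EtOH ratio of 2.17 in members (1817 against 69 counts) and of -1.22 in other nuclei, so the libraries differed in opposite directions. The difference was not tested, and with an 80% overlap of the peaks the member ratio was 0.92.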

How the results depend on the processing

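No paired analysis was possible because DOX and EtOH were 1 library each, and for the same reason no library could be left out. The overlap minimum of 80% or 90%, the 5 CPM minimum and the settings without epithelial-level members or without DOX subcluster 5 were chosen after seeing the data. Of 406 values under alternatives, 347 stayed within the margin of the value reported (1.5 times for counts, the interval for ratios and shares), 55 moved and 4 called values changed sign. A count minimum cannot change the ratio of a named gene, nor can a count, CPM or overlap minimum that of a named region. Such unchanged ratios are among the 347, so that number does not measure how stable the values are. The member share became 40.7% in DOX and 7.63% in EtOH at a minimum score of 2.0, and 10.4% in EtOH after thinning. No left-out marker, depth minimum, doublet removal or limit to shared regions moved it beyond its interval. Higher DOX over EtOH genes, 38 in all, were 14 with at least 1000 counts and 12 with the 80% overlap. Lower ones, 12 in all, were 3 near a TSS, 1 with at least 1000 counts, 1 at a score of 2.0, 1 without epithelial-level members and 34 without DOX subcluster 5. Higher regions, 1012 in all, were 2393 with at least 200 counts, 359 with at least 800, 304 and 189 with overlaps of 80% and 90%, 495 at 5 CPM and 128 at 5 CPM with 80% overlap. Lower regions, 27 in all, were 163, 7, 16 and 14 under the first 4 of these. Open regions were 11613 with at least 200 counts instead of 17945. List genes called were 2 higher and 1 lower, with 0 higher at 80% overlap and 0 lower without epithelial-level members. Leiden resolution 1 gave 9 subclusters instead of 5. Signs of called genes turned for Arhgap42 (0.069), Itgb6 (0.25) and Ptprg (0.046) at a score of 2.0 and for Cnrip1 (-0.0054) at 80% overlap, and that of Trps1, which was not called, for regions within 1 kb of a TSS (-0.02). The causes were not tested. The 256 EtOH members limit precision, and with 1 library a group no spread between replicates is known.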
